A study of Sus scrofa with 8 samples.

Results

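Toll-like receptors and the cytosolic DNA sensing pathway were followed through 8 genes chosen by name: TLR3, TLR7, TLR8, TLR9, MYD88, CGAS, STING1 and IRF3. All 8 were listed among the 35683 genes counted. Nuclei were sequenced from 8 retinas of 6 female Yucatan minipigs a few months old. Every animal, controls included, had received Vitrase, a hyaluronidase, 2 weeks before dosing, and weekly methylprednisolone, a corticosteroid. AAV-injected animals received AAV2.7m8/CAG-GFP, an AAV2 capsid variant carrying GFP under the broadly active CAG promoter, into the vitreous at 5e11 vector genomes per eye, and vehicle-injected animals received vehicle. The week 2 retinas came from 1 animal given AAV (7221, left and right eye) and 1 given vehicle (7222, left and right eye). For week 4, 1 left retina each was taken from animals 7248 and 7249, given AAV, and animals 7250 and 7251, given vehicle. Each group also carries a batch label of its own, so batch and group cannot be told apart. The question was which retinal and immune cell classes held transcripts of these sensors, at what level in vehicle-injected eyes, and how the level differed after AAV injection.

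Toll-like receptors of the endosome read nucleic acids taken up by a cell. TLR9 recognises DNA with unmethylated CpG, TLR3 double-stranded RNA, and TLR7 and TLR8 single-stranded RNA, so only part of the group senses DNA. TLR7, TLR8 and TLR9 signal through the adaptor MYD88, whereas TLR3 uses TICAM1. In the cytosol, the enzyme cGAS (gene CGAS) binds double-stranded DNA and makes the messenger cGAMP, which activates STING (gene STING1). STING and the TLR3 branch both act through the kinase TBK1 on IRF3, a transcription factor of type I interferon genes. CGAS, TLR3 and TLR7 are themselves known to be inducible by interferon. In the retina, microglia are the resident cells best known for these receptors.

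Before the levels, the stretches in front of 3 members are shown because interferon-inducible genes often carry a recognition element for interferon-activated factors near their start. The 250 bases in front of the RefSeq gene start (Sscrofa11.1) were searched on both strands for the core of the interferon-stimulated response element, written as 2 copies of GAAA with any 2 bases between them. Capitals mark the match, which reads as the reverse complement in CGAS and TLR3, where it lies on the other strand.
CGAS, chr1:92483003-92483252, plus strand: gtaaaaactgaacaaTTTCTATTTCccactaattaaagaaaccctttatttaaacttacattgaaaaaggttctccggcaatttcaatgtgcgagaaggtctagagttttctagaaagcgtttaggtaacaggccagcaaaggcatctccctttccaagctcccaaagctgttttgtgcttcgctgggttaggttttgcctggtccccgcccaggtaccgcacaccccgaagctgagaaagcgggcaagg
TLR3, chr15:46966012-46966261, plus strand: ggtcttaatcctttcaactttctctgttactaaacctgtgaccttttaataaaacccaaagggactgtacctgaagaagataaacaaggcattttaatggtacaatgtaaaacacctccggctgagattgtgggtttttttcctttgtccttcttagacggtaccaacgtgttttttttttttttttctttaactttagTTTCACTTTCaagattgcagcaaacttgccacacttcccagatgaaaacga
MYD88, chr13:22976701-22976950, plus strand: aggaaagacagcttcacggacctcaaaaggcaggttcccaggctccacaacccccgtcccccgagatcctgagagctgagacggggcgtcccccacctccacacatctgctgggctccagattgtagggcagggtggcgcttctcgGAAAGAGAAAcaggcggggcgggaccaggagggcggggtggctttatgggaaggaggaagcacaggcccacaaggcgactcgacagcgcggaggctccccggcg
The end of the match nearest to the gene start lay 226 bases before it in CGAS, 42 in TLR3 and 95 in MYD88. Among all 19556 windows of this length, 3.01% held the letters, against 3 of the 8 members. The windows of TLR7, TLR8, TLR9, STING1 and IRF3 did not hold them, which says nothing about other spellings or other distances. Among pathway genes named further below, the windows of ZBP1 and USP18 held the letters and those of UNC93B1 and IRF7 did not. A match in letters is a description and not a site of binding.

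The genes lie on 6 chromosomes of Sscrofa11.1. CGAS (ENSSSCG00000021383) spans chr1:92483253-92500376, TLR3 (ENSSSCG00000015801) chr15:46966262-46977774 and MYD88 (ENSSSCG00000011251) chr13:22976951-22979568, all on the plus strand. TLR9 (ENSSSCG00000011436) spans chr13:34353444-34370990, STING1 (ENSSSCG00000014349) chr2:141359402-141367222 and IRF3 (ENSSSCG00000003178) chr6:54701733-54706079, all on the minus strand. TLR7 (ENSSSCG00000012117) at chrX:9573178-9576987 lies inside the RefSeq span of TLR8 (ENSSSCG00000012118) at chrX:9551284-9616762 on the same strand, so the division of reads between this pair is uncertain.

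After the filter on mitochondrial RNA, 350537 of 388491 nuclei remained, with 111704702 to 164085422 unique molecular identifiers (UMIs, counted transcript molecules) per retina. Nuclei were assigned to classes by marker genes, and 5.56% that carried markers of a second class were set aside as mixed together with 10.9% of no class. Of 368982 barcode sequences, 4.63% occurred in more than 1 retina. Myeloid nuclei numbered 63 to 68 in the vehicle-injected retinas, and 1472 and 943 in the AAV-injected retinas of week 4. Only those 2 retinas held lymphocytes in number, with 973 and 805 T or NK nuclei and 372 and 391 B or plasma nuclei. Leukocyte RNA set free during preparation can enter other droplets, so its share of each class was estimated from 10 leukocyte genes kept out of the class markers. It was at most 0.895% in neurons and glia with at least 20 nuclei of the other retinas, and reached 1.39% in rods and 1.47% in bipolar cells of animal 7248. The level each member would have from that share alone is given below as the free-RNA level, and it may be too high where neurons themselves use some of the 10 genes. It is poorly known, and can be too low, where the leukocytes of a retina held few or no UMIs of the member.

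In vehicle-injected eyes, TLR3, MYD88 and CGAS stood highest in myeloid nuclei in all 3 animals among the 9 classes compared, whereas IRF3 was found in each of the 9. TLR7 was also highest in myeloid nuclei in all 3, but on 3 myeloid UMIs in all, so that place is not fixed at this depth. Endothelial nuclei were too few to be ranked, with 4 in animal 7250 and 20 in 7251. In the 20 and 30 endothelial nuclei of the left and right eye of 7222, TLR3 was 22.2 and 37.6 CPM and TLR7 22.2 and 12.5 CPM, on 1 to 3 UMIs each. CGAS was 22.2 CPM in the left eye and STING1 12.5 CPM in the right eye of 7222, and STING1 was 24.9 CPM in 7251, on 1 UMI each. Levels are given in CPM, the UMIs of a gene per 1000000 UMIs of the class, and they are compared within a gene only, since no length correction was made. TLR3 in myeloid nuclei was 187 CPM in animal 7222, 108 in 7250 and 116 in 7251, or 137 ± 43.6 (SD, n = 3 animals, 78 UMIs). Of the classes compared, astrocytes followed at 2.78 ± 0.832 CPM and Müller glia, the radial support cells of the retina, at 1.28 ± 0.347. All 3 animals had more TLR3 in myeloid nuclei than any had in astrocytes, and more in Müller glia than in rods at 0.591 ± 0.212 CPM, where the free-RNA level was 0.371 to 0.920. In amacrine, bipolar, cone and ganglion cells TLR3 lay at 0.270 to 0.483 CPM, within the range of 0.157 to 1.34 CPM that free RNA gave in these classes.

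The receptors of single-stranded RNA and of DNA were sparse without AAV. TLR7 in myeloid nuclei rested on 3 UMIs, with 3.53, 9.80 and 8.29 CPM in the 3 animals. Amacrine and bipolar cells had 0.854 ± 0.504 and 0.788 ± 0.334 CPM of TLR7, on 63 and 73 UMIs. Their free-RNA level was 0.0105 to 0.0624, but it rests on the same 3 myeloid UMIs and is poorly known. TLR7 in rods differed between animals, with 1.59 CPM in 7251 against 0.192 in 7250 and 0.362 in 7222. Animal 7251 was also highest in amacrine cells (1.42 CPM), bipolar cells (1.16), Müller glia (0.665), cones (0.371) and astrocytes (1.48). It was not highest in horizontal cells, ganglion cells or myeloid nuclei. TLR8 gave 1 UMI in vehicle myeloid nuclei. TLR9, the receptor of CpG DNA, was at 21.2, 0 and 16.6 CPM in myeloid nuclei on 8 UMIs, and in bipolar cells, rods, amacrine cells and Müller glia at 0.153 to 0.213 CPM, where the free-RNA level was 0 to 0.154. No TLR9 was counted in vehicle cones, horizontal cells, ganglion cells or astrocytes. In 2 animals myeloid TLR9 was above every other class, and in 7250 the 102027 myeloid UMIs held none, which allows up to 29.4 CPM.

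MYD88, the shared adaptor, was highest in myeloid nuclei at 28.2, 49.0 and 33.1 CPM (36.8 ± 10.9, n = 3) and next in rods at 9.88, 7.31 and 4.44 CPM (7.21 ± 2.72). Every animal's myeloid level was above every rod level. Rods and the classes below them, down to amacrine cells at 1.38 ± 0.131 CPM, overlapped with their neighbours in the order. All of these were well above a free-RNA level of at most 0.312 CPM.

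CGAS in vehicle myeloid nuclei was 38.8, 58.8 and 24.9 CPM (40.8 ± 17.1, 20 UMIs) and in astrocytes 5.15, 3.11 and 2.96 CPM (3.74 ± 1.23, 27 UMIs). Both steps, from myeloid nuclei to astrocytes and from astrocytes to ganglion cells, held in all 3 animals. In the other classes CGAS was 0.103 to 0.411 CPM, against free-RNA levels of 0 to 0.374. STING1 also had its highest means of the 9 classes in myeloid nuclei and astrocytes, with 10.6, 29.4 and 8.29 CPM in myeloid nuclei (7 UMIs) and 3.09, 5.18 and 10.4 in astrocytes (31 UMIs), whose ranges overlapped. STING1 in Müller glia was 0.303 ± 0.176 CPM, below every astrocyte value. In astrocytes of all 3 animals both genes lay above a free-RNA level of 0.111 to 0.335 CPM for CGAS and 0.0283 to 0.168 for STING1.

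IRF3 was broad, with 70.8 ± 14.8 CPM in rods, 62.8 ± 14.8 in cones, 45.1 ± 11.4 in bipolar cells and 33.7 ± 7.13 in Müller glia. Amacrine cells and ganglion cells were lowest, at 16.5 ± 3.57 and 16.8 ± 4.72 CPM. Myeloid nuclei had 81.2, 68.6 and 8.29 CPM, the last from 1 UMI, so their place in the order is not fixed at this depth.

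**Figure D1:**
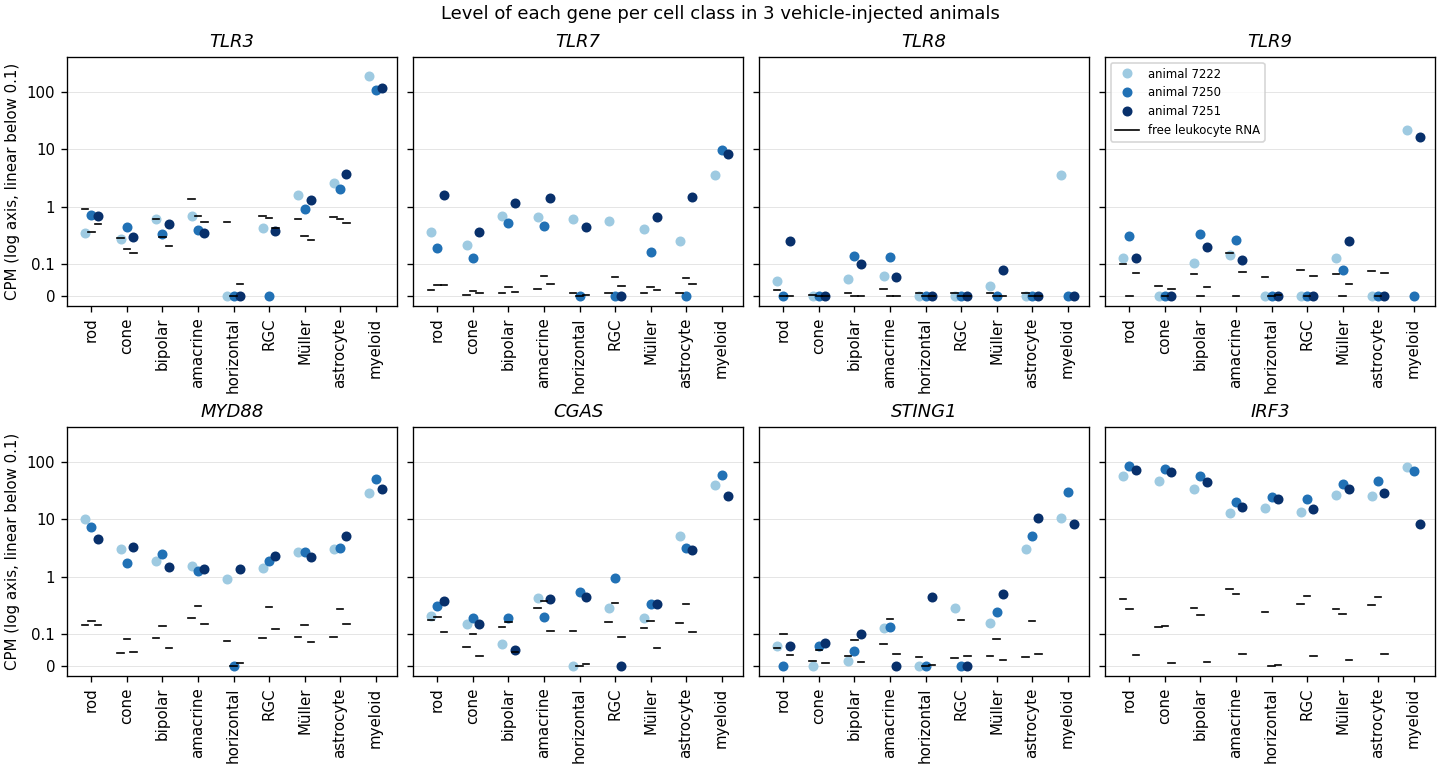
Level of each of the 8 genes in 9 cell classes of the 3 vehicle-injected animals. The vertical axis is CPM of the class on a log axis that is linear below 0.1, each point is 1 animal and each black dash is the free-RNA level of the same animal. TLR3, CGAS and MYD88 are highest in myeloid nuclei in all 3 animals, astrocytes come second for CGAS in all 3 and for STING1 by the mean, although astrocyte STING1 is above myeloid STING1 in 7251, and IRF3 is spread over all 9 classes.

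At week 4, CGAS was higher after AAV injection in 8 of the 9 classes compared, and TLR3 in Müller glia, astrocytes and amacrine cells. STING1 was higher in Müller glia and rods, MYD88 and IRF3 in Müller glia, and TLR7 and TLR8 in myeloid nuclei. No member passed the test as lower. UMIs were summed per retina and class and 2 AAV-injected were compared with 2 vehicle-injected animals by edgeR's quasi-likelihood test, with p-values adjusted over all genes of the class and a threshold of 0.05. Of 72 pairs of member and class, 41 had enough counts to be tested and 17 passed. A member with few counts enters the test mainly where it is high, so these numbers do not stand for all 72 pairs. Among the calls, CGAS in Müller glia, astrocytes, amacrine cells, bipolar cells, cones and ganglion cells entered only through the AAV-injected animals. The same holds for TLR3 in amacrine cells and astrocytes, STING1 in Müller glia and rods, and TLR8 in myeloid nuclei. In Müller glia, for example, the vehicle-injected animals had 4 CGAS UMIs each. The direction of these calls was fixed in advance. Among all genes tested, the share called higher was 11.6% in Müller glia, 7.64% in astrocytes, 5.94% in rods, 4.64% in myeloid nuclei, 2.5% in ganglion cells, 2.39% in horizontal cells, 1.98% in bipolar cells, 1.83% in amacrine cells and 1.15% in cones. The share called lower was 11.6% in Müller glia, 6.74% in astrocytes, 6.48% in rods, 2.83% in myeloid nuclei, 1.19% in horizontal cells, 1.02% in bipolar cells, 1.01% in ganglion cells, 0.79% in amacrine cells and 0.78% in cones. Set against these shares, 5 of 6 tested members were called higher in Müller glia, 3 of 8 in myeloid nuclei, 2 of 6 in rods, 2 of 5 in amacrine cells, 2 of 4 in astrocytes, 1 of 5 in bipolar cells, 1 of 4 in cones, 1 of 2 in ganglion cells and 0 of 1 in horizontal cells, where only IRF3 could be tested (edgeR adjusted p = 0.937) and no member had an unadjusted p under 0.05.

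CGAS differed most in Müller glia, where it was 20.3 and 20.6 CPM in the AAV-injected and 0.331 and 0.333 CPM in the vehicle-injected animals. The log2 fold change was 5.88 ± 0.29 (SE, edgeR adjusted p = 1.64e-05), and the free-RNA level in the AAV-injected retinas was 1.74 and 2.06 CPM. These Müller nuclei were fewer, 2083 and 783 against 5016 and 5475, and deeper, with a median of 5142 and 5308 UMIs against 2132 and 1917. The part of that difference in this and the other week 4 results of Müller glia, TLR3, STING1, MYD88 and IRF3 included, was not tested. In astrocytes CGAS rose from 3.11 and 2.96 to 21.9 and 25.1 CPM, with a log2 fold change of 2.97 ± 0.42 (edgeR adjusted p = 0.00341) and a free-RNA level of 1.70 and 0.731 CPM. Astrocyte nuclei too were deeper after AAV, with a median of 10182 and 10664.5 UMIs against 4723.5 and 4801, and the part of that difference in the CGAS and TLR3 results of astrocytes was not tested. Amacrine cells went from 0.199 and 0.415 to 6.02 and 6.89 CPM (log2 fold change 4.33 ± 0.36, edgeR adjusted p = 0.000321), against a free-RNA level of 1.88 and 1.96. In Müller glia, astrocytes and amacrine cells alike, CGAS entered the test only through the AAV-injected animals. In these 3 classes the groups did not overlap, the AAV-injected retinas lay above the free-RNA level, and the call held without each of the 4 animals in turn.

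In rods, cones and bipolar cells CGAS passed the test at a level that free leukocyte RNA alone could give. Bipolar cells had 3.08 and 2.79 CPM against 0.189 and 0.0505 in vehicle (log2 fold change 4.55 ± 0.47, edgeR adjusted p = 0.00389), and their free-RNA level was 2.91 and 2.71. Rods had 2.91 and 2.23 CPM against 0.306 and 0.381 (log2 fold change 3.01 ± 0.37, edgeR adjusted p = 0.00946), with a free-RNA level of 2.74 and 2.53. Cones had 3.20 and 1.66 CPM against 0.193 and 0.148 (log2 fold change 3.79 ± 0.56, edgeR adjusted p = 0.0288), with a free-RNA level of 2.69 and 2.44. For these 3 classes the data do not separate CGAS made by the cells from CGAS carried in. Without animal 7250 or 7251 the adjusted p in edgeR was 0.0528 and 0.0621 for rods and 0.0705 and 0.124 for cones, and for cones it was 0.0517 without 7248.

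Ganglion cells, which had the most EGFP transcript per UMI of the 9 classes, had 4.75 and 5.02 CPM of CGAS against 0.944 and 0 in vehicle, on 26 UMIs in all against 2. Their free-RNA level was 0.728 and 1.24 CPM. The log2 fold change was 3.44 ± 0.84 (edgeR adjusted p = 0.0340), and the adjusted p rose to 0.175 without animal 7248, 0.153 without 7249 and 0.330 without 7251. Horizontal cells had too few counts to be tested, with 3.93 and 2.60 CPM after AAV against 0.537 and 0.450. These rested on 8 and 5 UMIs after AAV and 1 each in vehicle, and the free-RNA level after AAV was 2.415 and 0.9485 CPM.

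**Figure D2:**
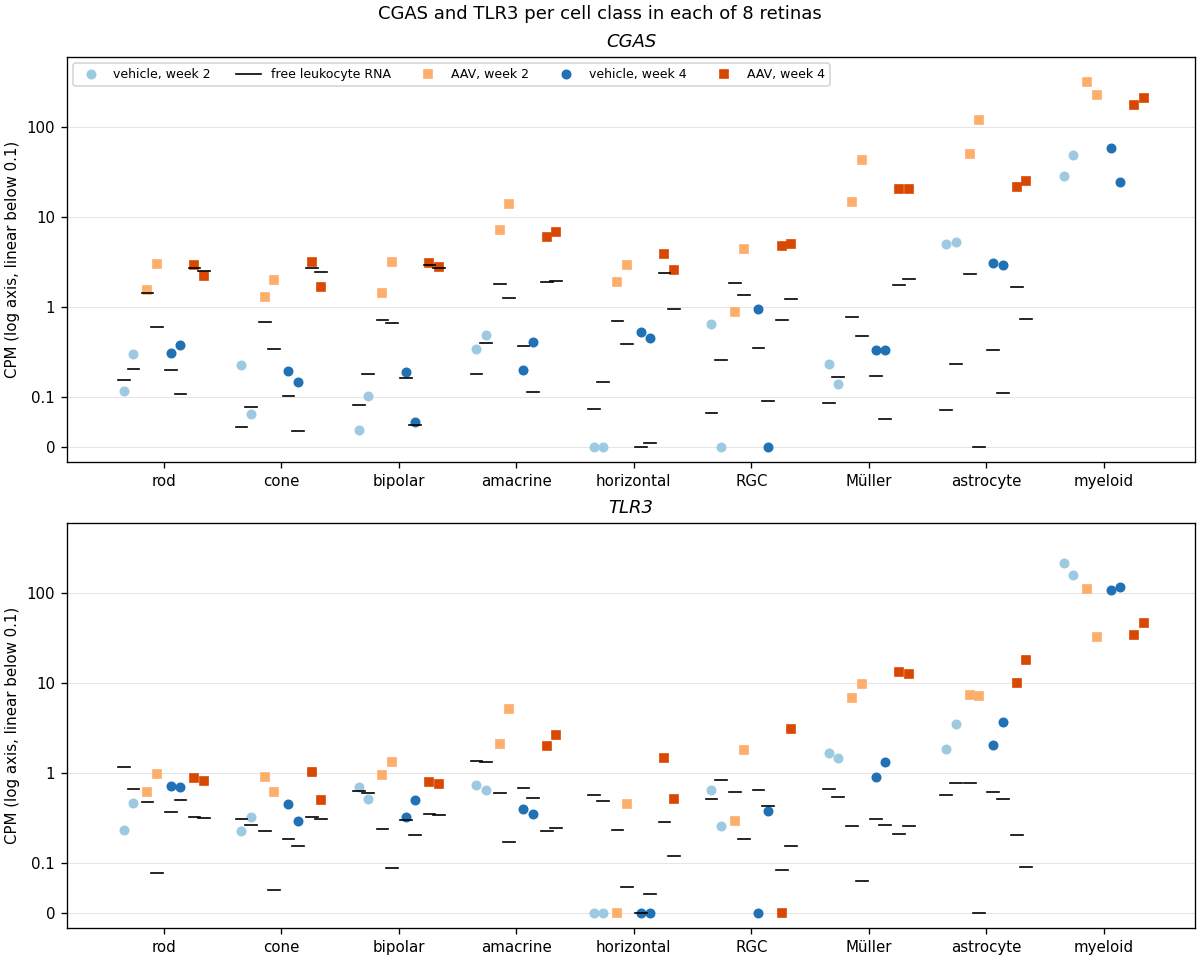
CGAS (top) and TLR3 (bottom) in 9 cell classes of all 8 retinas. The vertical axis is CPM of the class on a log axis that is linear below 0.1, circles are vehicle-injected and squares AAV-injected retinas at week 2 (light) and week 4 (dark), and black dashes give the free-RNA level. CGAS is higher in every AAV-injected than in every vehicle-injected retina of the same week in all 9 classes, on the free-RNA level in rods, cones and bipolar cells at week 4 and far above it in Müller glia and astrocytes, whereas TLR3 is higher in glia and lower in myeloid nuclei.

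TLR3 was higher at week 4 in Müller glia, with 13.4 and 12.8 CPM after AAV against 0.911 and 1.33 in vehicle. The log2 fold change was 3.52 ± 0.29 (edgeR adjusted p = 0.000196), and the free-RNA level was 0.209 and 0.261 CPM. Amacrine cells had 2.03 and 2.68 against 0.397 and 0.356 CPM (log2 fold change 2.61 ± 0.40, edgeR adjusted p = 0.0120), and the adjusted p was 0.0701 without animal 7249. In astrocytes TLR3 was 9.93 and 18.3 against 2.07 and 3.70 CPM (log2 fold change 2.21 ± 0.57, edgeR adjusted p = 0.0363). That call was lost without animal 7249, 7250 or 7251, at adjusted p = 0.209, 0.183 and 0.138 in edgeR. In rods and bipolar cells TLR3 had log2 fold changes of 0.36 ± 0.34 and 0.92 ± 0.42 that did not pass.

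STING1, the receptor of cGAMP, was 2.62 and 1.90 CPM in Müller glia after AAV against 0.249 and 0.499 in vehicle. The log2 fold change was 2.60 ± 0.51 (edgeR adjusted p = 0.00991), the free-RNA level was 0.295 and 0.273 CPM, and the adjusted p was 0.103 without animal 7248 and 0.0525 without 7250. Rods passed with 0.418 and 0.349 CPM against 0 and 0.0634 (log2 fold change 3.90 ± 0.90, edgeR adjusted p = 0.0411), but their free-RNA level was 0.464 and 0.335 CPM, and the call was lost without animal 7249, 7250 or 7251, at adjusted p = 0.0776, 0.211 and 0.112 in edgeR, and without 7248 STING1 did not pass the filter on low counts. Astrocytes, with the highest STING1 level among the 8 non-immune classes compared, had 11.9 and 14.2 against 5.18 and 10.4 CPM, and the log2 fold change of 0.73 ± 0.43 did not pass.

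MYD88 and IRF3 moved little. In Müller glia MYD88 was 5.33 and 4.5 CPM against 2.73 and 2.16, a log2 fold change of 1.01 ± 0.30 (edgeR adjusted p = 0.0460) that was lost without any 1 of the 4 animals, at adjusted p = 0.0692 to 0.231. IRF3 in Müller glia was 61.0 and 50.9 CPM against 41.0 and 33.3, a log2 fold change of 0.59 ± 0.15 (edgeR adjusted p = 0.0284), with an adjusted p of 0.135 without animal 7248 and 0.136 without 7251. In the other 8 classes IRF3 differed by log2 fold changes of 0.06 to 0.98 and passed in none (smallest edgeR adjusted p = 0.133, in astrocytes, the only one of the 8 at an unadjusted p under 0.05). MYD88 log2 fold changes ran from -0.55 in myeloid nuclei to 0.70 in cones in the other classes tested, without a call.

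**Figure D3:**
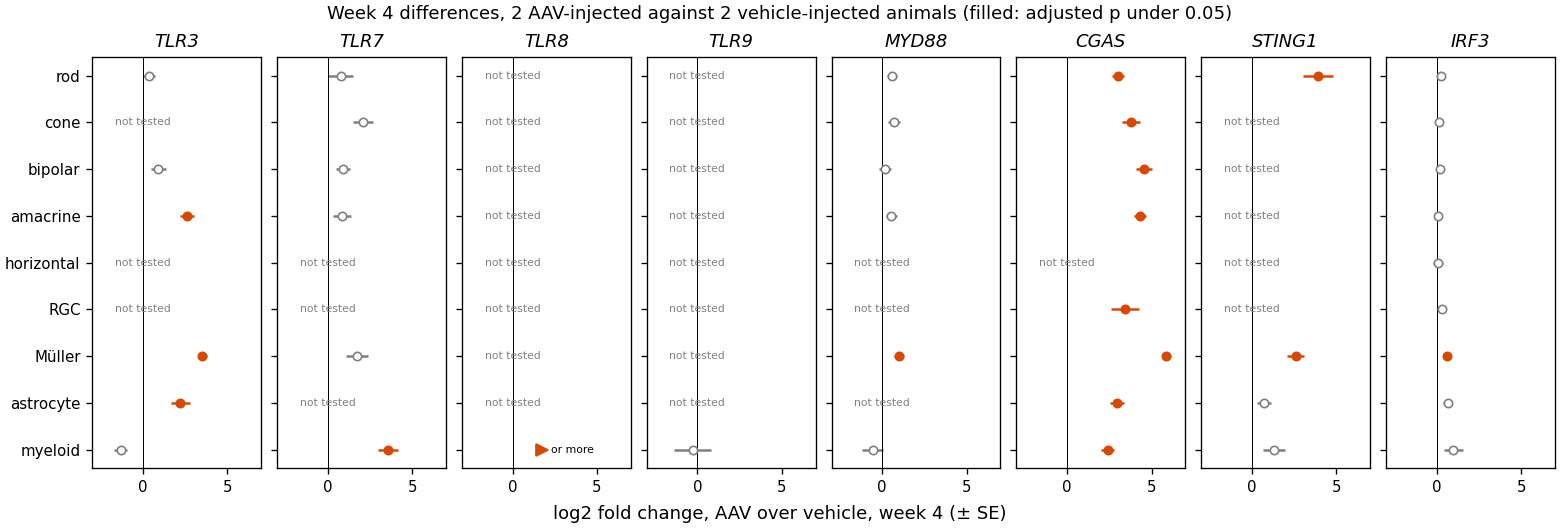
Log2 fold change of each gene per class at week 4, AAV-injected over vehicle-injected animals, 2 against 2. Points are edgeR estimates, filled where the adjusted p is under 0.05, and bars are standard errors worked back from the test statistic. The arrow for TLR8 is a lower bound because both vehicle-injected animals had no counts. CGAS is filled in 8 of 9 classes, and in Müller glia CGAS, TLR3, STING1, MYD88 and IRF3 are all filled.

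Myeloid nuclei showed another pattern at week 4, with the RNA receptors TLR7 and TLR8 higher and TLR3 lower in both AAV-injected animals. TLR7 was 103 and 90.3 CPM against 9.80 and 8.29, the latter from 1 UMI each (log2 fold change 3.57 ± 0.58, edgeR adjusted p = 0.00285). TLR8 was 47.9 and 42.6 CPM, and no UMI was found in either vehicle-injected animal, which makes it at least 3.38-fold higher when 3 UMIs are allowed over both (edgeR adjusted p = 0.0153). TLR8 entered the test only through the AAV-injected animals, so the direction of its call was fixed in advance. Without animal 7251 the adjusted p in edgeR was 0.0560, and without 7248 or 7249 TLR8 did not pass the filter on low counts. CGAS was 178 and 210 CPM against 58.8 and 24.9 (log2 fold change 2.40 ± 0.39, edgeR adjusted p = 0.00281). TLR3 was 34.6 and 46.5 CPM against 108 and 116, without overlap. Its log2 fold change of -1.32 ± 0.37 missed the threshold (edgeR adjusted p = 0.0563) and passed in DESeq2 (adjusted p = 0.0485) and with all 6 animals (edgeR adjusted p = 0.0144). TLR9 was 7.21 and 6.0 CPM against 0 and 16.6, so its groups overlapped.

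The make-up of the myeloid class moved with these values. Macrophage-marked nuclei made 1244 of 1472 and 750 of 943 in the AAV-injected animals, against 8 of 64 and 12 of 63 in the vehicle-injected ones. Myeloid nuclei were also deeper after AAV, with a median of 2446 and 3360 UMIs against 1386.5 and 1657. The part of that difference in the week 4 myeloid results was not tested. In microglia-marked nuclei alone, an alternative chosen after seeing the data, CGAS was 159 and 208 against 65.9 and 19.6 CPM (log2 fold change 2.18 ± 0.49, edgeR adjusted p = 0.00951). TLR7 was 115 and 88.5 against 0 and 9.82 CPM, on 69 and 60 against 0 and 1 UMIs (log2 fold change 4.25 ± 0.86, edgeR adjusted p = 0.00468). In these nuclei TLR7 entered the test only through the AAV-injected animals, so the direction of that call was fixed in advance. TLR3 in microglia-marked nuclei was 64.8 and 72.3 against 110 and 118 CPM, a log2 fold change of -0.68 ± 0.41 (edgeR adjusted p = 0.343). TLR8 was 46.5 and 19.2 CPM in them with no UMI in vehicle, where 3 UMIs would be 32.95 and 29.45 CPM, and did not pass the filter on low counts. Of the 3 members called in all myeloid nuclei, CGAS and TLR7 were thus called in microglia-marked nuclei and TLR8 was not, while TLR3 did not pass in either set.

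**Figure D4:**
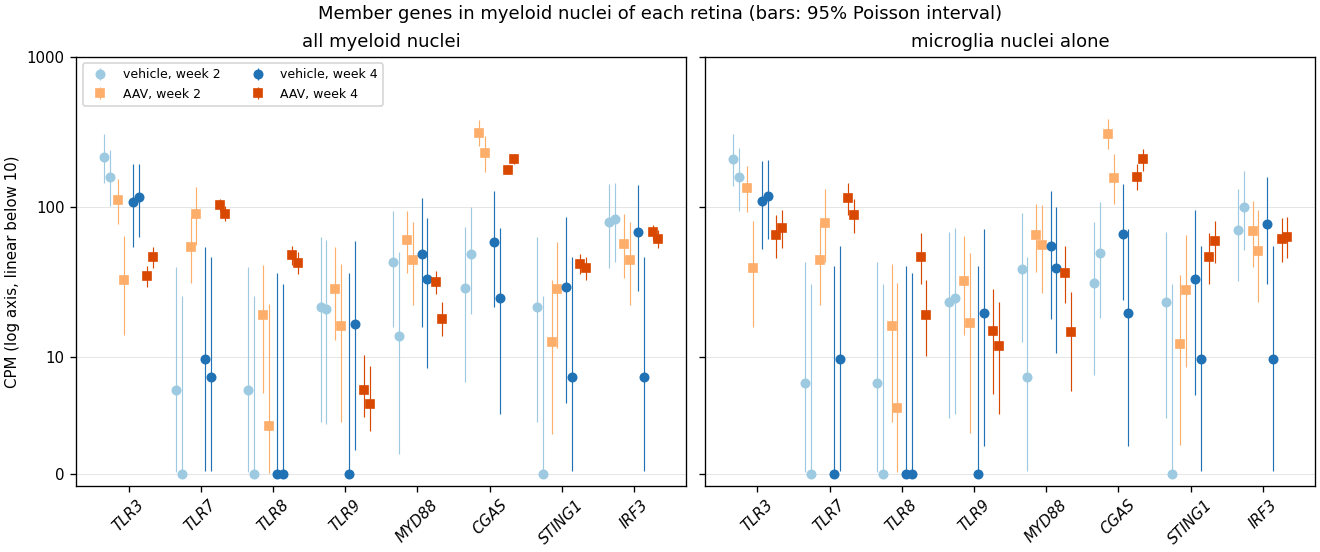
The 8 genes in all myeloid nuclei (left) and in microglia-marked nuclei alone (right) of each retina. The vertical axis is CPM on a log axis that is linear below 10, points are retinas, and bars are exact 95% Poisson intervals that cover counting error only. In both panels CGAS and TLR7 of every AAV-injected retina lie above those of every vehicle-injected retina, and TLR3 lies below that of the vehicle-injected retinas of the same week.

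Lymphocytes of the AAV-injected week 4 retinas had no counterpart in vehicle, so their levels are given alone. CGAS was 247 and 292 CPM in T or NK nuclei and 256 and 234 in B or plasma nuclei of animals 7248 and 7249, higher than in the myeloid nuclei of the same retinas. TLR7 was 104 and 56.9 CPM in B or plasma nuclei and 38.5 and 17.2 in T or NK nuclei. STING1 showed the opposite order, at 24.8 and 24.4 CPM in T or NK nuclei and 1.73 and 6.62 in B or plasma nuclei. TLR9 was counted 3 times in all B or plasma nuclei together, at 3.46 and 1.32 CPM. The 58 and 39 dendritic nuclei had 122 and 86.2 CPM of IRF3 and no UMI of TLR9, which allows up to 21.5 and 32.3 CPM.

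At week 2, with 1 animal per arm and no test, CGAS was already higher in the AAV-injected animal in all 9 classes and in both of its eyes. In Müller glia it was 14.7 (left) and 42.8 CPM (right) against 0.234 and 0.141, a 165-fold difference of the summed UMIs (exact 95% interval 75.7 to 452, counting error only). Bipolar cells differed 35.0-fold (13.4 to 130.0) on 4 vehicle UMIs and cones 11.2-fold (4.56 to 35.8) on 5. Amacrine cells differed 26.1-fold (16.7 to 43.0), astrocytes 14.0-fold (8.76 to 23.5) and rods 11.8-fold (6.53 to 22.9). In myeloid nuclei CGAS was 314 and 228 CPM against 28.8 and 48.5, or 7.10-fold (3.86 to 14.5). Ganglion cells differed 8.45-fold (1.97 to 76.2) on 15 UMIs against 2, and horizontal cells at least 5.55-fold, with no UMI in vehicle and 3 allowed. Bipolar CGAS was 1.45 and 3.16 CPM in the AAV-injected eyes, above a free-RNA level of 0.713 and 0.673, and amacrine CGAS was 7.17 and 13.9 CPM, above 1.83 and 1.27. Rods of the left eye, at 1.56 CPM, lay near their free-RNA level of 1.44, and ganglion cells of that eye, at 0.877 CPM, lay below theirs of 1.86. In the right eye rods had 3.04 CPM against a free-RNA level of 0.596 and ganglion cells 4.38 against 1.36. Cones of the left and right eye had 1.29 and 2.02 CPM against 0.686 and 0.347.

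TLR3 and STING1 also differed at week 2. TLR3 was 5.34-fold higher in Müller glia (3.93 to 7.37), 5.50-fold in amacrine cells (3.78 to 8.22) and 2.83-fold in astrocytes (1.21 to 6.99). STING1 was 16.5-fold higher in Müller glia (6.79 to 52.1) and 5.76-fold in astrocytes (2.95 to 12.1), where it reached 9.97 CPM in the left and 34.8 in the right eye against 2.77 and 3.50. In myeloid nuclei TLR3 was 111 and 32.5 against 216 and 159 CPM, or 0.409 of the vehicle level (0.267 to 0.623), and TLR7 was 53.8 and 89.4 against 7.20 and 0 CPM on 39 UMIs against 1 (ratio 19.7, 3.33 to 796). IRF3 and MYD88 differed by less than 2-fold in all 9 classes. IRF3 was 1.18- to 1.54-fold higher in the classes other than myeloid nuclei, where it was 0.636 of the vehicle level (0.355 to 1.15). For MYD88 the interval was clear of 1 only in rods, at 0.771 of the vehicle level (0.668 to 0.8885), and in Müller glia, 1.535-fold higher (1.16 to 2.04). The widest MYD88 ratio of the 9 classes was in myeloid nuclei, 1.89-fold (0.847 to 4.77), which were higher in both AAV-injected eyes, unlike at week 4. In microglia-marked nuclei alone MYD88 was 2.54-fold higher (1.02 to 7.55), on 26 against 6 UMIs.

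Counted over pairs with at least 10 UMIs, 22 of 50 were at least 2-fold higher after AAV at week 2. The UMIs were summed over both arms, so some of the 22 reached 10 only through the arm where they were high, such as CGAS in horizontal cells with 19 against 0. The count was 4 of 8 in amacrine cells, where 5.36% of all genes with at least 10 UMIs were that much higher, 3 of 6 in Müller glia (7.64%), 3 of 6 in rods (5.59%), 3 of 5 in astrocytes (6.06%) and 3 of 7 in bipolar cells (4.4%). It was 2 of 5 in cones (5.4%), 2 of 7 in myeloid nuclei (16.9%), 1 of 3 in horizontal cells (7.66%) and 1 of 3 in ganglion cells (5.76%).

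The right eye of animal 7221 had more CGAS than the left in 8 of the 9 classes, the exception being myeloid nuclei. It also had more EGFP transcript from the vector, 37.6 against 25.7 CPM in Müller glia and 230.3 against 93.3 in ganglion cells. These are eyes of 1 animal, and a relation of EGFP to CGAS was not tested. Whether the difference between the AAV-injected and vehicle-injected animals changed from week 2 to week 4 was tested in edgeR with the interaction of treatment and week over all 6 animals. Each week 2 arm was 1 animal, so the spread came from the 4 animals of week 4 alone and the week 2 animals were assumed to vary like them. None of 46 pairs passed the adjusted threshold and 2 had an unadjusted p under 0.05. These were TLR3 in Müller glia, whose log2 fold change was larger at week 4 by 1.16 ± 0.44 (edgeR adjusted p = 0.193), and STING1 in astrocytes, whose log2 fold change was smaller at week 4 by a difference of -1.76 ± 0.73 (edgeR adjusted p = 0.297). For CGAS in Müller glia the difference between weeks was -1.37 ± 0.58 on the log2 scale (edgeR adjusted p = 0.299).

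Within a class, nuclei with at least 1 EGFP UMI were set beside nuclei with none. In Müller glia CGAS was 22.1 against 14.1 CPM and 50.2 against 41.6 in the left and right eye of 7221, 33.8 against 19.1 in 7248, and 20.7 against 20.6 in 7249. The level was thus as high or higher with EGFP in all 4 retinas, but the exact 95% interval of the ratio excluded 1 only in 7248 (1.77, 1.17 to 2.60). In amacrine cells the ratio was below 1 in the left eye of 7221 and above 1 in the other 3 retinas, with an interval clear of 1 only in the right eye of 7221 (1.40, 1.13 to 1.73). Bipolar cells were split, with the ratio above 1 in 2 retinas and below 1 in 2. In astrocytes of the left eye of 7221, CGAS was 119 CPM in 40 nuclei with EGFP and 37.3 in 225 without (ratio 3.19, 1.93 to 5.17), while the right eye had 127 against 115 and the 10 astrocytes with EGFP of 7249 held no CGAS. Nuclei with EGFP were usually deeper, with a median of 3975.5 against 3471 UMIs in Müller glia of the right eye of 7221, and these nuclei are not replicates of a condition. Müller nuclei without an EGFP UMI had 14.1 to 41.6 CPM, against 0.141 to 0.333 CPM in Müller glia of the vehicle-injected retinas. An EGFP UMI is not taken here to mark a transduced nucleus, nor its absence an untransduced one, and neither was tested. EGFP was also 25.4 and 17.9 CPM in T or NK nuclei and 27.7 and 19.9 CPM in B or plasma nuclei of animals 7248 and 7249, against 16.5 and 14.45 CPM in their Müller glia. The part of EGFP carried between droplets in the split was not tested.

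**Figure D5:**
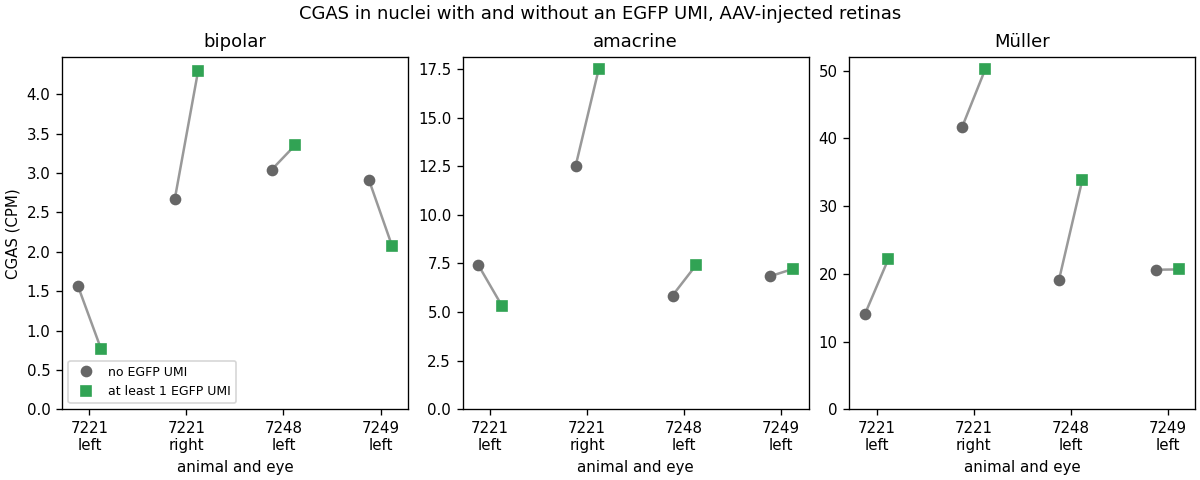
CGAS in nuclei without (circles) and with (squares) an EGFP UMI in the 4 AAV-injected retinas. The vertical axis is CPM of those nuclei on a linear axis from 0 for each class, and lines join the values of a retina. In Müller glia the square is as high as or above the circle in all 4 retinas, whereas bipolar and amacrine cells differ between retinas.

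The other genes of the pathway were read from a list of 75, of which 69 were listed by symbol. AIM2 and IFI16, further DNA sensors, are not analysed here. The share of all tested genes called higher and lower at week 4 is given in brackets. At week 4 the list had 17 genes called higher and 2 lower of 60 tested in Müller glia (11.6% and 11.6%). It had 10 and 0 of 62 in rods (5.94% and 6.48%), 8 and 2 of 61 in myeloid nuclei (4.64% and 2.83%) and 8 and 1 of 45 in astrocytes (7.64% and 6.74%). It had 7 and 0 of 60 in bipolar cells (1.98% and 1.02%), 6 and 0 of 58 in amacrine cells (1.83% and 0.79%) and 6 and 0 of 55 in cones (1.15% and 0.78%). Horizontal cells had 6 and 0 of 44 (2.39% and 1.19%) and ganglion cells 5 and 0 of 47 (2.5% and 1.01%). The part of free leukocyte RNA in these counts was not tested. The list's median log2 fold change was 0.30 in Müller glia and 0.38 in astrocytes, where that of all tested genes was -0.0044 and -0.0023. In myeloid nuclei it was 0.41, or 0.40 with genes absent from vehicle set to their lower bound, against 0.18 for all genes. In neurons it was 0.08 to 0.26 where that of all tested genes was at most 0.0227.

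UNC93B1, which escorts TLR3, TLR7, TLR8 and TLR9 to the endosome, was higher in all 9 classes, with 28.7 and 36.95 CPM in Müller glia against 2.07 and 2.00 (log2 fold change 3.98 ± 0.23, edgeR adjusted p = 3.95e-05). In myeloid nuclei UNC93B1 was 259 and 257 against 98.0 and 116 CPM. In rods it was 2.39 and 1.63 CPM, below its free-RNA level of 2.63 and 1.93. ZBP1, a cytosolic sensor of left-handed nucleic acid, was also higher in all 9 classes, from 0.414 and 0 to 43.4 and 50.9 CPM in Müller glia (log2 fold change 7.73 ± 0.46, edgeR adjusted p = 4.13e-05).

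IRF7, the interferon-inducible relative of IRF3, was higher in the 8 classes in which it was tested. In rods it went from 0.957 and 1.33 to 14.8 and 13.3 CPM, with a free-RNA level of 0.730 and 0.428 (log2 fold change 3.74 ± 0.23, edgeR adjusted p = 0.00117). USP18, which restrains interferon receptor signalling, was higher in 8 of 9 classes and in rods reached 83.9 and 100.2 CPM against 4.02 and 7.36. Rods and bipolar cells, whose CGAS lay on the free-RNA level, had IRF7 and USP18 well above it. TREX1, which degrades cytosolic DNA, was called in Müller glia alone, at 6.41 and 4.74 against 0.580 and 0.748 CPM (log2 fold change 3.07 ± 0.38, edgeR adjusted p = 0.00146), and had too few counts for a test in 4 of 9 classes.

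TBK1, the kinase between STING and IRF3, was tested in all 9 classes and called in none, with log2 fold changes of -0.43 to -0.01 (smallest edgeR adjusted p = 0.158, in cones, and 2 classes at an unadjusted p under 0.05). TICAM1, the adaptor of TLR3, was tested in 3 classes and called in none (smallest edgeR adjusted p = 0.0835, in Müller glia, the only class of the 3 at an unadjusted p under 0.05). Lower calls were few. CD14, a co-receptor of other Toll-like receptors, fell in myeloid nuclei from 58.8 and 24.9 to 6.49 and 4.20 CPM (log2 fold change -2.74 ± 0.69, edgeR adjusted p = 0.0331), as did CNPY3, a chaperone of Toll-like receptors, from 167 and 108 to 54.8 and 38.1 CPM (log2 fold change -1.39 ± 0.37, edgeR adjusted p = 0.0441). The share of macrophage-marked nuclei moved with both, from 8 of 64 and 12 of 63 to 1244 of 1472 and 750 of 943. In microglia-marked nuclei alone, a setting chosen after seeing the data, the log2 fold change was -2.62 ± 0.72 for CD14 (edgeR adjusted p = 0.0277) and -1.11 ± 0.45 for CNPY3, which did not pass (edgeR adjusted p = 0.136). CD14 in these nuclei rested on 5 and 3 UMIs after AAV and on 5 and 3 in vehicle. The UMIs of all genes in them were 602271 and 677996 against 91047 and 101860, so the CD14 difference is one of share at very low counts. TOLLIP, an inhibitor of Toll-like receptor signalling, fell in Müller glia (log2 fold change -1.01 ± 0.29, edgeR adjusted p = 0.0412), as did the calcium sensor STIM1 (log2 fold change -0.42 ± 0.12, edgeR adjusted p = 0.0442), which was named after its value was seen. ABCC1, an exporter of cGAMP, fell in astrocytes (log2 fold change -0.83 ± 0.23, edgeR adjusted p = 0.0446).

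Over 96 sums of class and retina with at least 20 nuclei, the genes with the most similar profile were listed by Pearson's r of log2(CPM + 1). The sums share retinas and depth, so r is a description without a test. CGAS was closest to PML (r = 0.894), UNC93B1 (0.893) and TRIM34 (0.877). TLR9 was closest to PYCARD (0.921), PLD4 (0.888) and CLEC5A (0.877), TLR7 to GIMAP8 (0.845), IL12RB1 (0.845) and ARHGAP4 (0.831), and TLR8 to IL12RB1 (0.797), TLR7 (0.786) and GIMAP8 (0.779). For TLR3 the list included IFNAR2 (0.778) and THBS2 (0.778), and for STING1 it was SLC15A3 (0.784), STAT3 (0.773) and RIN3 (0.771). MYD88 was closest to PFDN1 (0.776), C1QB (0.728) and CCDC86 (0.718), and IRF3 to PLEKHF2 (0.816), STAG2 (0.816) and AKNA (0.734).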

How the data were processed

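Single nuclei, sorted by DAPI, were counted with the 10x GEM-X 3′ v4 assay on 4 lanes per retina. The authors aligned the reads with Cell Ranger 8.0.0 to Sscrofa11.1 with EGFP added and deposited raw UMI counts per gene and nucleus. Members, gene lists and tests were chosen with earlier results of these data known. Nuclei of high mitochondrial share were removed by a mixture model (posterior above 0.75), leaving at most 0.300 to 0.581% mitochondrial UMIs per retina. Classes were assigned from marker genes (posterior at least 0.95, at least 2 markers), without a doublet caller, and nuclei with at least 3 markers of a second class were set aside. Counts were summed per class and retina, both eyes of a week 2 animal being 1 animal, in classes of at least 20 nuclei. Week 4 was tested with edgeR 4.0.16 quasi-likelihood after its filter on low counts, with TMM normalization, in R 4.3.3. Standard errors of edgeR log2 fold changes were worked back from the fold change and the F statistic of its test. DESeq2 1.42.0, other size factors, no filter, a stricter gate (posterior 0.999), no mitochondrial filter, nuclei of at least 1000 UMIs, all 6 animals and omission of each animal were alternatives. Poisson and ratio intervals are exact at 95% and cover counting error only. A count of 0 allows 3 UMIs. The label does not say whether week 4 animals shared litter or day. The paper sacrificed its week 4 animals in 2 cohorts on different days, the earlier one because of inflammation. Which cohort each retina came from is not labelled. The p-values rest on 2 animals per arm, with the spread partly shared across the genes of a class. Genes named were the members, UNC93B1, TICAM1, TBK1, IRF7, ZBP1 and TREX1, and pathway genes called higher in most classes or called lower. A further gene of similar profile to TLR3 is not reported here.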

Additional observations from a re-analysis of the deposited data

Results flagged for a closer look

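In myeloid nuclei at week 4 the TLR3 log2 fold change was -1.32, with every AAV-injected animal below every vehicle-injected one. In rods, bipolar cells, amacrine cells, Müller glia and astrocytes every AAV-injected animal was above. The difference was not tested. MYD88 had a log2 fold change of -0.55 in myeloid nuclei, with both AAV-injected animals below the vehicle-injected ones, and the opposite order in cones, amacrine cells and Müller glia. The difference was not tested. At week 2 MYD88 in myeloid nuclei lay the other way, at 60.2 and 44.7 CPM in the AAV-injected and 43.2 and 13.9 CPM in the vehicle-injected animal, and with all 6 animals its log2 fold change was 0.053. At week 4 the myeloid class held mainly macrophage-marked nuclei after AAV injection. In microglia-marked nuclei alone the week 4 log2 fold change was -0.68 for TLR3 and -0.83 for MYD88, neither past the threshold in edgeR.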

How the results depend on the processing

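Of the 17 member and class pairs called at week 4, 9 to 11 passed when 1 of the 4 animals was left out, the lone sample then being assumed to vary like the other group. CGAS in bipolar cells, amacrine cells, Müller glia, astrocytes and myeloid nuclei, TLR3 in Müller glia and TLR7 in myeloid nuclei passed in each of these fits. DESeq2 called 12 of 70 pairs, 11 of them shared, and did not call CGAS in ganglion cells, TLR3 in astrocytes, or STING1, MYD88 and IRF3 in Müller glia, while STING1 in rods had no adjusted p there. With all 6 animals 14 of 42 passed, 13 shared, and STING1 in rods, TLR3 in astrocytes, and MYD88 and IRF3 in Müller glia were lost. With the stricter gate 14 of 40 passed, all shared, and STING1 in rods, CGAS in cones and MYD88 in Müller glia were lost. The count was 17, all shared, with other size factors and with nuclei of at least 1000 UMIs, 17 of 70 without the filter on low counts, of which 16 were shared (MYD88 in Müller glia was lost and STING1 in ganglion cells passed), 16 without the mitochondrial filter, where CGAS in ganglion cells was lost, and 16 of 39 with microglia in place of all myeloid nuclei, a setting chosen after seeing the data. Pairs at least 2-fold higher at week 2 numbered 17 of 40 in left and 21 of 41 in right eyes, against 22 of 50. Uncalled log2 fold changes turned sign as follows, and the cause was not tested. Without 1 animal each, the values ran from -0.22 to 2.80 for TLR7 in rods, -0.19 to 0.59 for MYD88 in bipolar cells, -0.0074 to 0.39 for IRF3 in bipolar cells, -0.046 to 0.23 for IRF3 in amacrine cells, -0.35 to 0.37 for IRF3 in horizontal cells, and -1.11 to 7.08 for TLR9 in myeloid nuclei, the last when the remaining vehicle-injected animal had no UMI. MYD88 in bipolar cells was -0.0084 with the stricter gate, and MYD88 in myeloid nuclei was 0.053 with all 6 animals. No paired analysis was possible because replicate numbers follow accession order and mark different animals. Depth limits TLR7, TLR8 and TLR9 in vehicle-injected eyes, which rest on 8 or fewer myeloid UMIs each.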

Other observations

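Pericytes at week 2, a class of few nuclei, held 15 CGAS UMIs in the AAV-injected animal, 9.40 CPM in the left and 44.1 in the right eye, and none in the vehicle-injected one, which makes the level at least 4.08-fold higher when 3 UMIs are allowed. TLR9 in bipolar cells at week 2 had 22 UMIs against 6, a ratio of 3.31 (exact 95% interval 1.30 to 9.98, counting error only), whereas at week 4 it had 0.211 and 0.268 CPM after AAV against 0.331 and 0.202 in vehicle. In ganglion cells at week 4, STING1 was 3.66 and 0.772 CPM after AAV with no UMI in vehicle, at least 3.58-fold higher with 3 UMIs allowed, and did not pass the filter on low counts.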
